A study of Sorghum bicolor with 12 samples.

Results

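The 6 sucrose transporter genes SUT1 to SUT6 of sorghum (Sorghum bicolor) were followed in seedling roots, as 6 genes of the 34129 in the deposited table. They were taken by gene ID: SUT1 is Sobic.001G254000, SUT2 is Sobic.008G193300, SUT3 is Sobic.001G488700, SUT4 is Sobic.004G353600, SUT5 is Sobic.004G190500 and SUT6 is Sobic.007G214500. These SUT numbers come from the list of members. Neither the table nor the RefSeq gene table pairs them with the IDs, and they may differ from published numberings of the sorghum family. The ID identifies the gene, so SUT1 here need not be the gene known as SUT1 elsewhere, and no role known for one numbered transporter is given to an ID here. No sequence or length was joined to the IDs either.

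The roots came from bri1-ems72, a mutant of the brassinosteroid receptor gene BRI1, and from its wild-type sibling WT-ems72, both taken from plants selfed after a second backcross. The question of the comparison is which transcripts of the root the receptor controls. Each genotype had 3 pools of at least 6 roots, cut from untreated seedlings 8 days after young embryos (13 to 17 days after anthesis) were placed on medium at 28 °C. Each pool was sequenced in 2 technical runs, which were summed, so that n counts pools. All mutant pools carry the same allele, ems72, so another allele was not compared, and whether same-genotype pools come from separate sowings is not given. P-values therefore measure the spread between these pools. Those of edgeR, with their SEs and intervals, also draw on the spread of other genes, since edgeR moderates each gene's estimate.

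SUT proteins are membrane carriers that move sucrose together with protons. Those of the plasma membrane load sucrose into the phloem and help cells take it up, and others in plants sit on the vacuolar membrane and release stored sucrose. Roots import their sugar through the phloem. BRI1 is the receptor kinase at the cell surface for brassinosteroids, steroid hormones of plants that promote cell elongation and vascular differentiation.

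Pools held 44357644 to 54629427 counts. The lowest count of a member other than SUT1 in any pool was 99. BRI1 (Sobic.003G277900) was read in all pools, with 97.9, 99.8 and 106.9 CPM (each count scaled to library size, with TMM factors) in bri1-ems72 and 88.5, 88.1 and 75.0 CPM in WT-ems72. A mutation in the gene need not change the level of its transcript, so this does not check the labels. No marker genes of root or other tissues could be looked up, since the IDs carry no product names, and the labelled tissue was not checked.

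Transcripts of 5 of the 6 transporter genes were found in the root. A gene was counted as expressed at 1 CPM or more in every pool of a genotype, and SUT2, SUT3, SUT4, SUT5 and SUT6 met this in both genotypes. The same 5 genes met it at 0.5 and at 2 CPM, although SUT6 was at 1.80 CPM in 1 WT-ems72 pool. CPM is not corrected for gene length, so transcript levels are compared below between pools for one gene and not between genes. The shares and sums over the family given further below count reads and do not rank the genes by transcripts. A bulk level also cannot tell fewer phloem cells from less RNA per cell.

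The gene Sobic.001G254000, SUT1 in the numbering used here, was close to silent in these roots. Its counts were 0, 2 and 0 in bri1-ems72 replicates 1, 2 and 3, and 1, 0 and 4 in the WT-ems72 replicates. That is 2 of 146441747 counts in the mutant and 5 of 144408774 in the wild type, a ratio of 0.394 with an exact 95% counting interval of 0.0376 to 2.41. The interval covers counting error only and leaves out the spread between pools, and 4 of the 5 wild-type counts came from replicate 3. No difference was detectable at this depth. SUT1 did not pass the filter on low counts and was not tested. A total this low or lower was found for 7482 genes, 21.9% of the table, of which 5057 had no count at all.

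In the order of replicates 1, 2 and 3, SUT3 stood at 103.5, 139.7 and 182.8 CPM in bri1-ems72 and at 124.8, 91.6 and 169.8 CPM in WT-ems72. Replicate 3 was the highest pool in each genotype, and the ranges overlapped almost fully. The means were 142.0 ± 39.7 CPM in bri1-ems72 and 128.8 ± 39.2 CPM in WT-ems72 (SD, n = 3 each). On the log2 scale the mutant-over-wild-type change was 0.14 (SE 0.31, 95% interval -0.59 to 0.87), and edgeR's quasi-likelihood test (two-sided, adjusted over all genes tested) gave an adjusted p of 1. The sign turned without bri1-ems72 replicate 3 (-0.08) or WT-ems72 replicate 2 (-0.06).

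SUT2 had 121.4, 71.9 and 93.4 CPM in bri1-ems72 and 119.9, 88.4 and 89.3 CPM in WT-ems72. Replicate 1 was the highest in both genotypes and bri1-ems72 replicate 2 the lowest of all. The means lay within each other's spread, at 95.6 ± 24.8 CPM in the mutant and 99.2 ± 17.9 CPM in the wild type (SD, n = 3 each). Its log2 fold change was -0.05 (SE 0.25, 95% interval -0.65 to 0.54; edgeR adjusted p = 1). Leaving out bri1-ems72 replicate 2 turned it to 0.11, and leaving out WT-ems72 replicate 1 turned it to 0.10.

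SUT4 was the steadiest member and the only one whose genotypes did not overlap. SUT4 had 40.5, 40.7 and 41.4 CPM in bri1-ems72 and 37.7, 37.7 and 34.9 CPM in WT-ems72. The mutant pools lay within 1 CPM of each other, and all of them lay above all wild-type pools. With total library size in place of TMM, the lowest mutant and the highest wild-type pool both stood at 38.5 CPM. The mutant pools then ran from 38.5 to 42.0 CPM (SD 1.92), so their closeness depends on the scaling. The difference was small, 40.9 ± 0.513 CPM in bri1-ems72 and 36.8 ± 1.64 CPM in WT-ems72 (SD, n = 3 each). Its log2 fold change was 0.15 (SE 0.15, 95% interval -0.20 to 0.51), with an edgeR adjusted p of 1. That SE and interval draw in part on the spread of other genes and are not SUT4's own spread alone. Permuting the genotype labels of SUT4's log2 CPM over all 20 assignments gave an exact two-sided p of 0.1, which is the smallest that 3 pools against 3 can give. All mutant pools stood above all wild-type pools for 682 of 23707 tested genes (2.88%), and all stood below for 403 (1.7%), together 1085 (4.58%). Interchangeable labels would set a gene's groups apart with a probability of 0.1, the exact permutation p above, so 4.58% is no excess. The single member of 5 is given as a description beside these shares.

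SUT5 had 3.18, 4.61 and 3.93 CPM in bri1-ems72 and 7.60, 3.32 and 5.47 CPM in WT-ems72. WT-ems72 replicates 1 and 3 lay above every mutant pool, but WT-ems72 replicate 2 lay between mutant pools. The means were 3.91 ± 0.713 CPM in bri1-ems72 and 5.46 ± 2.14 CPM in WT-ems72 (SD, n = 3 each). Its log2 fold change was -0.48 (SE 0.38, 95% interval -1.37 to 0.40), which missed the threshold (edgeR adjusted p = 1; exact two-sided permutation p = 0.3). Without WT-ems72 replicate 1 it was -0.17, and without WT-ems72 replicate 2 it was -0.74.

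SUT6 varied most. It had 9.76, 6.41 and 4.52 CPM in bri1-ems72 and 6.02, 12.6 and 1.80 CPM in WT-ems72. Both the highest and the lowest pool were wild type, 7.02-fold apart. The means were almost equal, 6.90 ± 2.65 CPM in the mutant and 6.82 ± 5.46 CPM in the wild type (SD, n = 3 each). The log2 fold change of 0.02 (SE 0.66) had a 95% interval of -1.56 to 1.59, so a difference of more than 2-fold in either direction is not left out (edgeR adjusted p = 1). It was 0.82 without WT-ems72 replicate 2 and -0.44 without WT-ems72 replicate 3. It was -0.33 without bri1-ems72 replicate 1 and -0.06 without WT-ems72 replicate 1.

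**Figure D1:**
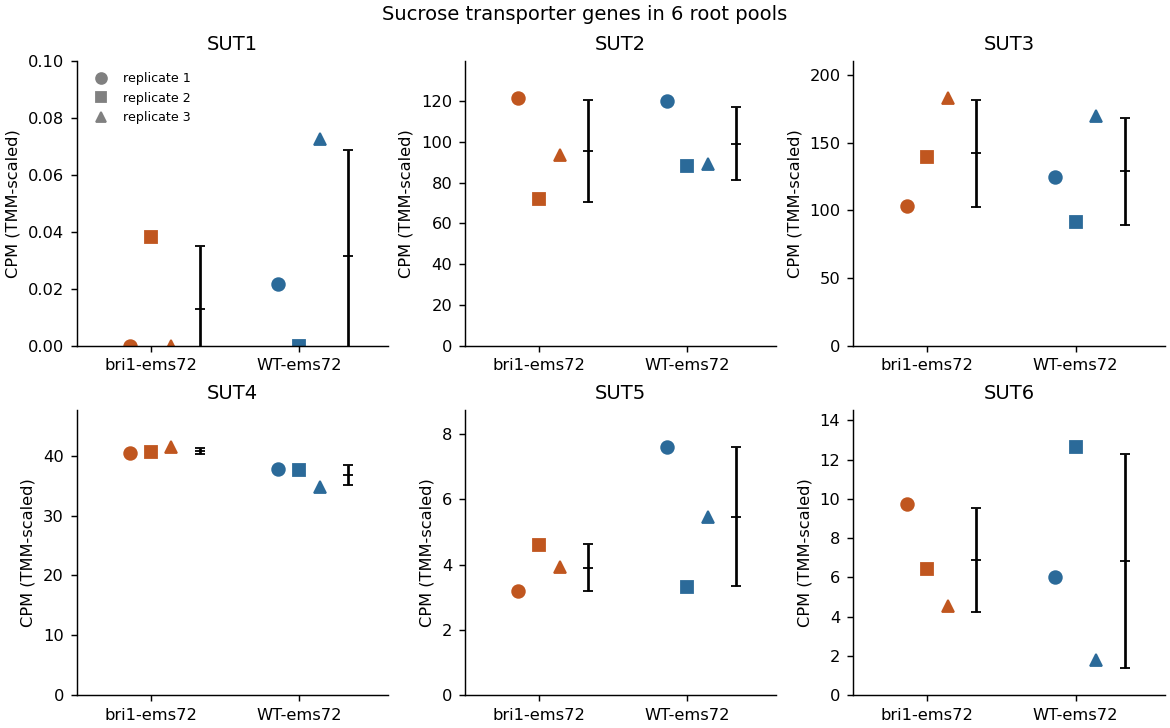
CPM (TMM-scaled, linear axis from 0, a separate scale for each gene) of the 6 genes in each pool, with bri1-ems72 left of WT-ems72; points are pools, marked by replicate, and the bars beside them are the mean and SD of 3 pools. SUT4 is nearly level, at 34.9 to 41.4 CPM over all pools, while SUT6 runs from 1.80 to 12.6 CPM within WT-ems72, and SUT1 stays below 0.1 CPM.

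Over the family, 0 of 5 tested members were called at an adjusted p below 0.05, as were 0 of 23707 tested genes (0%) with edgeR. Of all tested genes, 337 (1.42%) reached an unadjusted p below 0.05, and none of the 5 members was among them. That share is below the one such a threshold lets through when nothing differs. With 3 pools against 3, the 0 calls do not show that no gene differed. Calls made by other tools over the table numbered 4 for DESeq2 (3 higher, 1 lower), 2 for edgeR's likelihood ratio test (1 each way) and 0 for limma-voom, with no member among them. Of the members, 3 had positive and 2 negative log2 fold changes, with a median of 0.02, against a median of -0.01 over all tested genes.

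The intervals show what the pools could and could not bound. For SUT2, SUT3 and SUT4 the 95% interval lay within a 2-fold change in both directions, as it did for 51.1% of all tested genes. For SUT5 it reached beyond a 2-fold fall, and for SUT6 beyond 2-fold both ways. The bound for SUT3 depended on single pools. Its upper limit in log2 was 1.104 without bri1-ems72 replicate 1 and 1.054 without bri1-ems72 replicate 2. It was 1.045 without WT-ems72 replicate 1 and 1.149 without WT-ems72 replicate 3, all beyond 2-fold. Without bri1-ems72 replicate 3 (0.712) or WT-ems72 replicate 2 (0.698) it stayed within.

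**Figure D2:**
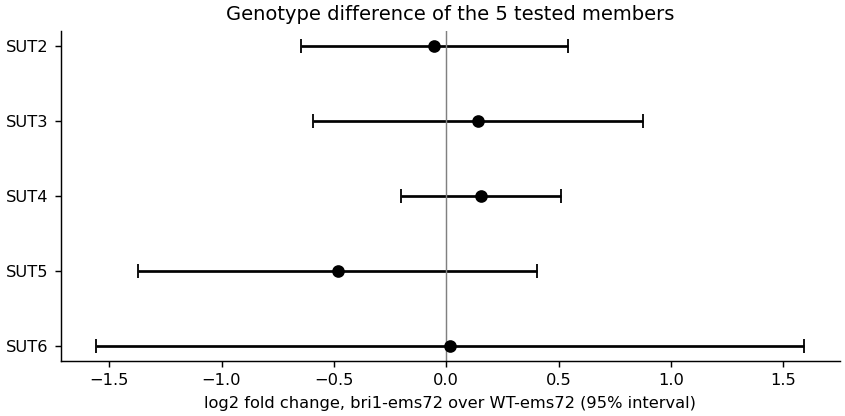
Log2 fold change of bri1-ems72 over WT-ems72 for the 5 tested members (points) with 95% intervals from edgeR (bars). Every interval crosses 0, and the widths run from SUT4 (-0.20 to 0.51) to SUT6 (-1.56 to 1.59).

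The spread between pools differed widely between members. The SD of log2 CPM over the 6 pools was 0.0943 for SUT4, and only 1.4% of tested genes had a smaller one. It was 0.289 for SUT2, 0.391 for SUT3, 0.471 for SUT5 and 0.973 for SUT6, against a median of 0.386 over tested genes. For SUT6, 90.0% of tested genes had a smaller SD.

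Pools, which hold different plants, were also compared with the sequencing runs of a pool, relative to raw library totals without TMM factors. On that scale the spread between pools exceeded that between runs, least clearly for SUT4 and SUT5. For SUT6 the chi-square per degree of freedom was 40 between mutant pools and 215 between wild-type pools. Between the runs of a pool it was 1.6 over all 6 pools, where counting noise alone gives about 1. For SUT2 it was 218 between mutant pools and 180 between wild-type pools, against 2.1 between runs. For SUT3 it was 606 between mutant pools and 610 between wild-type pools, against 1.61 between runs. SUT4 came closest to counting noise, with 4.23 between mutant pools, 3.96 between wild-type pools and 1.56 between runs. With TMM its mutant pools lay closer together (SD 0.513 CPM, against 1.92 CPM with total library size). The chi-square was not computed with TMM, so an excess of SUT4 over the runs is not shown on that scale. SUT5, with the fewest counts of the tested members, had 8.92 between mutant pools, 40.8 between wild-type pools and 2.51 between runs. It also had the widest split of one pool, 84 and 52 counts in bri1-ems72 replicate 1.

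Taken as counts over the whole family, the balance between SUT3 and SUT2 shifted from pool to pool in both genotypes. SUT3 held 37.2%, 53.1% and 56.0% of the family's counts in bri1-ems72 replicates 1, 2 and 3, and 42.2%, 39.2% and 56.4% in the WT-ems72 replicates. SUT2 held 43.6%, 27.3% and 28.7% in bri1-ems72 and 40.5%, 37.8% and 29.6% in WT-ems72. Only in bri1-ems72 replicate 1 did SUT2 have more counts than SUT3, with 95% Wilson intervals of 42.8% to 44.5% for SUT2 and 36.3% to 38.0% for SUT3. These are shares of reads, not of transcripts, and the intervals cover counting error only.

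The smaller shares moved too. SUT6 held 3.51%, 2.43% and 1.39% of the family's counts in bri1-ems72, and 2.03%, 5.41% and 0.597% in WT-ems72. SUT4 kept to 11.6% to 16.1% over all 6 pools and SUT5 to 1.14% to 2.57%. The summed level of the family was 278.3, 263.4 and 326.1 CPM in bri1-ems72 and 296.1, 233.6 and 301.4 CPM in WT-ems72. Its means of 289.3 ± 32.7 CPM and 277.0 ± 37.7 CPM (SD, n = 3 each) lay within each other's spread.

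**Figure D3:**
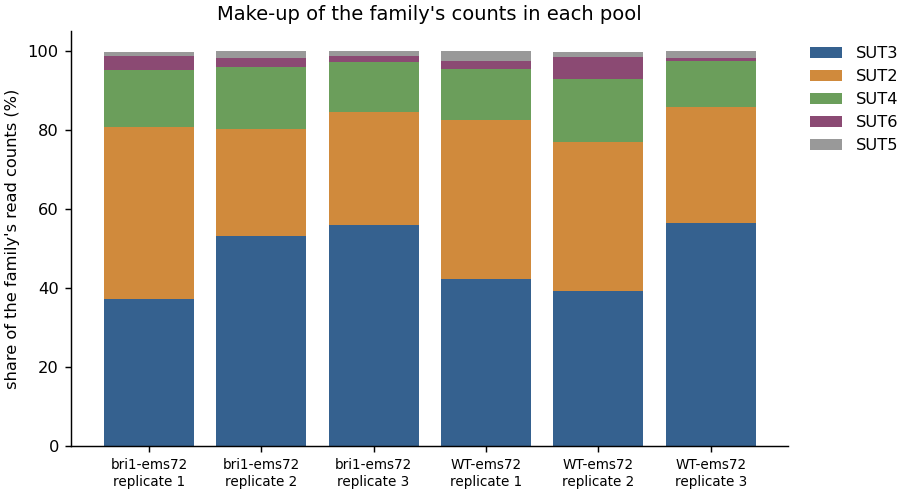
Share of the family's read counts (%, stacked to 100) taken by each transporter gene in each pool, with the bri1-ems72 pools left of the WT-ems72 pools; SUT1 is too low to be seen. The SUT3 part runs from 37.2% to 56.0% in bri1-ems72 and from 39.2% to 56.4% in WT-ems72.

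SUT3 and SUT6 ran opposite to each other over the pools. WT-ems72 replicate 2 had the lowest SUT3 and the highest SUT6, bri1-ems72 replicate 1 came next in both orders, and replicate 3 of each genotype had the highest SUT3 and the lowest SUT6. Over the 6 pools Pearson's r of the log2 CPM was -0.849 (exact permutation p = 0.0222) and Spearman's rho was -0.886 (exact permutation p = 0.0333). Of 15 relations computed among the 5 members and the library total, none passed after Benjamini-Hochberg adjustment (adjusted exact permutation p = 0.118 for r and 0.167 for rho). Without WT-ems72 replicate 2 and bri1-ems72 replicate 3, the pools farthest from the median of SUT3, r was -0.921.

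Library size moved with both genes. SUT3 was higher in pools with a larger total count (r = 0.894, exact permutation p = 0.0236, adjusted 0.118; rho = 0.943, exact permutation p = 0.0167, adjusted 0.125). SUT6 ran the other way (r = -0.893, exact permutation p = 0.00833, adjusted 0.118; rho = -0.943, exact permutation p = 0.0167, adjusted 0.125). Without WT-ems72 replicates 2 and 3, the pools farthest from the median total, r was 0.873 for SUT3 and -0.709 for SUT6. A rho above 0.94 with the library total was found for 456 tested genes (1.92%), and one below -0.94 for 735 (3.1%). The part of library size in these levels was not tested.

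The number in the sample titles went with the same order. The pools whose titles share the number 5, replicate 3 of each genotype, were the deepest of all and had the highest SUT3 and lowest SUT6. The pools with the number 2, bri1-ems72 replicate 2 and WT-ems72 replicate 1, stood in the middle of both orders. The labels do not say what this number marks. Within the pair numbered 5, bri1-ems72 minus WT-ems72 in log2 CPM was 0.11 for SUT3, 1.31 for SUT6, 0.06 for SUT2, 0.25 for SUT4 and -0.47 for SUT5. Within the pair numbered 2 it was 0.16 for SUT3, 0.09 for SUT6, -0.74 for SUT2, 0.11 for SUT4 and -0.72 for SUT5. SUT3, SUT4 and SUT6 were thus higher and SUT5 lower in the mutant pool of each pair, by amounts that differed between the pairs, while SUT2 changed sign. How many of all tested genes kept their sign over both pairs was not computed.

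**Figure D4:**
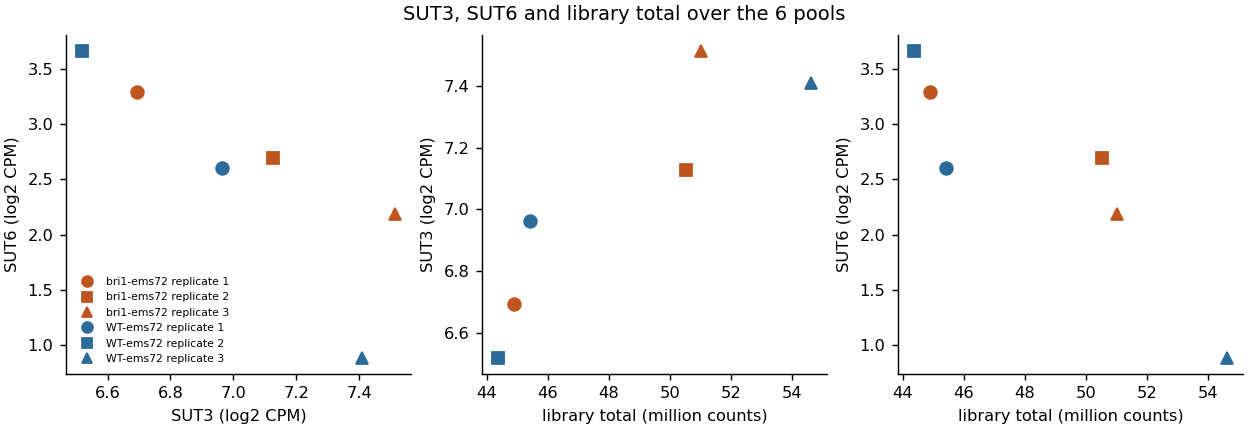
Log2 CPM of SUT6 against SUT3 (left), and of SUT3 (middle) and SUT6 (right) against the library total (the sum of a pool's counts); each point is a pool, coloured by genotype and marked by replicate. SUT6 is lower in the pools where SUT3 is higher (r = -0.849), and pools of both genotypes are mixed along each order.

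Of 21281 genes with a mean of at least 1 CPM, the gene whose levels followed SUT4 most closely over the 6 pools was BRI1, with r = 0.992 of log2 CPM. Both genes were lowest in WT-ems72 replicate 3 and highest in bri1-ems72 replicate 3. Both also had all mutant pools above all wild-type pools, as had 682 of 23707 tested genes (2.88%). A gap shared in this way raises r by itself. BRI1 had a log2 fold change of 0.28 (SE 0.17), against 0.15 for SUT4, and neither passed the test (edgeR adjusted p = 1 for each). As the best of so many genes over 6 points, this r is a description with no test. It was 0.988 with RLE scaling, where 1 gene came closer, and 0.981 with total library size, where 4 did. With SUT4 read from the first-listed column of each pool and BRI1 from the second it was 0.897, and the other way round 0.979.

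**Figure D5:**
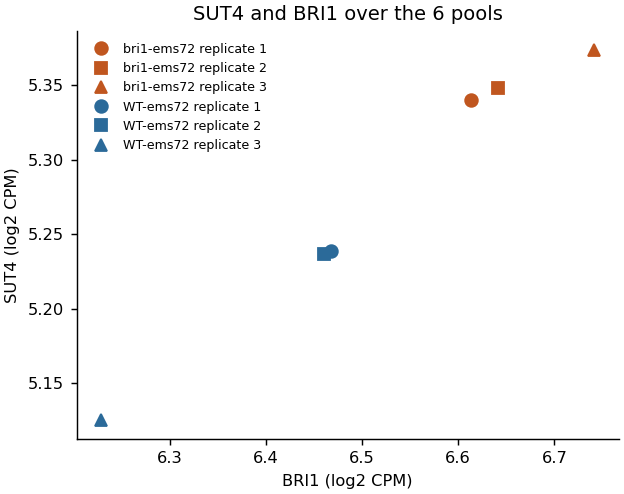
Log2 CPM of SUT4 against BRI1; each point is a pool, coloured by genotype and marked by replicate. The 3 bri1-ems72 pools lie at the upper right and the 3 WT-ems72 pools at the lower left, over a range of SUT4 from 34.9 to 41.4 CPM.

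The other members also had genes that followed them closely, all without names here. For SUT3 these were Sobic.009G002900 (r = 0.998) and Sobic.004G049200 (r = 0.996), and for SUT6 Sobic.001G010800 and Sobic.008G019400 (r = 0.988 each). An r of at least 0.95 was found with 116 genes for SUT3, 97 for SUT6, 31 for SUT5, 14 for SUT4 and 11 for SUT2. No SUT gene was among the 2 closest of another.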

How the data were processed

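Messenger RNA of 6 root pools was sequenced as stranded paired reads of 100 nt in 2 technical runs each (12 libraries), per the labels' protocols. The values are raw counts per gene as the authors deposited them. Per the submitters' processing notes, the tools named are HISAT2 2.1.0, featureCounts 1.6.2, Trimmomatic 0.38, FastQC 0.11.2, R 4.1.1 and edgeR 3.34.1. Which genome build, annotation and strand mode were used is not given in the sources used here. Overlapping genes and close copies, paralogs of this family included, may share reads.

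The table's 12 columns carry 6 names, each on 2 columns. The names give the pool but not the run, so both were summed. Genes were filtered with filterByExpr (23707 tested, 10422 removed), scaled by TMM and tested for genotype with edgeR 4.0.16 in R 4.3.3 (quasi-likelihood, robust, two-sided, Benjamini-Hochberg over all tested genes, threshold 0.05). DESeq2 1.42.0 and limma 3.58.1 gave alternatives. Log2 CPM used a prior count of 2. SEs and 95% intervals come from the F statistic and are not adjusted over genes. Exact permutation tests ran over 20 assignments of pools, or all orders of 6 pools for a correlation.

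The table's IDs matched 0 entries of the RefSeq gene table as written, and 0 with a locus tag prefix. That RefSeq table gave a locus tag for only 194 genes, so the lack of matches does not show that the IDs are unknown to RefSeq. The lists of other sugar transport genes, tissue markers, levels per coding length, proteins and promoters were therefore not used here. The rule for named genes took the 6 members, BRI1 and, for each expressed member, the 2 genes with the highest r. IDs are printed for 2 members only, chosen after the values were seen. The members and lists were chosen with earlier results of these data known.

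Whether the replicate numbers of the descriptions pair the pools was not settled. Deviations from the genotype means cancel within each genotype, so their correlations across genotypes depend on each other. For pools with the same replicate number the deviations correlated at 0.0442, -0.228 and 0.401 over tested genes. The 2 pairs that share a title number, of which the last is one, correlated at 0.392 and 0.401, the highest of the 9 pairs across genotypes. With 2 pairs, and no statement in the labels of what that number marks, it was used only as an alternative block.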

Additional observations from a re-analysis of the deposited data

How the results depend on the processing

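None of the 5 tested members was called under any of 17 alternatives each (85 values, lowest adjusted p = 0.9995). Under the 11 alternatives that keep all pools, log2 fold changes were -0.34 to -0.04 for SUT2, 0.12 to 0.16 for SUT3, 0.14 to 0.18 for SUT4 and -0.60 to -0.42 for SUT5, each with its direction kept. SUT6 ran from -0.0051 to 0.69. Its sign turned with the first-listed column only (-0.0051). Leaving out each pool in turn gave -0.28 to 0.11 for SUT2, -0.083 to 0.39 for SUT3 and -0.44 to 0.82 for SUT6, whose signs turned, and 0.11 to 0.17 for SUT4 and -0.74 to -0.17 for SUT5, whose signs did not. Genes called over the table were 0 higher and 0 lower except with DESeq2 (3 higher, 1 lower) and the likelihood ratio test of edgeR (1 and 1). The cause was not tested. Leaving out each pool gave 0 and 0. Under the scalings and single columns, 48 mean levels stayed within 1 SD of the value reported. Leaving out 1 pool of 3 cannot move a mean by that much, and gave 3.91 to 9.33 CPM for SUT6 in WT-ems72, 0.0108 to 0.0472 CPM for SUT1 in WT-ems72 and 0 to 0.0192 CPM for SUT1 in bri1-ems72. With the replicate block taken from the description number, 0 genes were called and log2 fold changes were 0.36 for SUT6 and -0.42 for SUT5. With the replicate block taken from the title number, 0 genes were called, 1311 had an unadjusted p below 0.05, and the values were 0.69 for SUT6 and -0.34 for SUT2. It rests on 2 matched pairs. Levels per coding length could not be computed for want of lengths. Other scalings, chosen after seeing the data, gave r of -0.855 and -0.83 for SUT3 with SUT6.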
